A study of Homo sapiens with 6 samples.

Results

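CGA, the alkaline phosphatase genes ALPP, ALPG and ALPI, and VSNL1 were followed through L3.6pl cells sorted by their surface L1CAM. These 5 genes, of 19469 in the count table, were picked by symbol because an earlier analysis of the same counts had placed them among the genes lower in L1low cells. Their difference between L1low and L1high is therefore given as a description, without a p-value. L3.6pl is an established human pancreatic cancer line, and L1CAM is a cell adhesion molecule of the immunoglobulin superfamily. The cells were grown in DMEM with 10% FBS, received no treatment, and were separated by FACS after 7AAD exclusion of dead cells into a population labelled L1CAM positive (L1high) and one labelled L1CAM negative (L1low). Each population gave 3 RNA-seq libraries. Both populations come from this single line. The titles and culture notes call the line L3.6PL, its cell line label reads L6.6pl, and its disease label reads pancreatic adenosquamous carcinoma. Nothing in the labels says that the libraries are separate cultures, so a p-value measures only the spread among these libraries, which may be technical.

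CGA encodes the alpha subunit shared by chorionic gonadotropin and the pituitary hormones LH, FSH and TSH, and a beta subunit gives each hormone its identity. The placenta and the pituitary are its usual sources. ALPP, ALPG and ALPI encode the placental, germ cell and intestinal alkaline phosphatases, ectoenzymes that are held on the outer cell surface by a glycosylphosphatidylinositol (GPI) anchor and that lie side by side on chromosome 2. VSNL1 encodes visinin-like protein 1, a neuronal calcium sensor with EF hands that is best known from brain. Tumor cells outside these tissues are known to make placental hormone subunits and placental-type alkaline phosphatase, which is called ectopic expression.

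Total counts ran from 16334610 to 21064685 per library. Levels are given as CPM, counts scaled to the library with TMM factors over all 6 libraries. A log2 fold change is L1low minus L1high, fitted with edgeR's quasi-likelihood model over L1high replicates 1 and 2 and L1low replicates 1, 2 and 3, the libraries that the study itself compared, and then over all 6. A gene was called at an adjusted p under 0.05. L1CAM, the sorting marker, stood at 81.1 ± 10.2 CPM in L1high and 20.5 ± 3.01 in L1low cells (SD, n = 3 each), with a log2 fold change of -1.90. Of 12 listed epithelial and squamous genes of the carcinoma all 12 were measured, led by KRT17 at 6674 and 6324 CPM and KRT5 at 3028 and 3283. Of 10 immune genes only CD68 was measured, and of 6 endothelial genes only PECAM1, at no more than 11.3 and 14.7 CPM in any library. In bulk RNA a lower level can come from fewer cells that make a transcript or from less of it per cell, and these cannot be told apart here.

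The alkaline phosphatase genes are close copies, and how close they are bears on how far their counts can be separated. The coding sequences of ALPP and ALPG were 97.8% identical, with 35 differences in 1596 aligned bases. ALPI was 89.7% identical to ALPP and 89.5% to ALPG. A stretch of 120 coding bases is given for all 3 genes (GRCh38, plus strand, chr2:232379764-232379883 in ALPP, chr2:232407845-232407964 in ALPG and chr2:232457150-232457269 in ALPI). It has the most differences between ALPP and ALPG among stretches that lie within a single exon and align without gaps in all 3 genes. Capitals mark the 13 positions at which the genes vary.
ALPP: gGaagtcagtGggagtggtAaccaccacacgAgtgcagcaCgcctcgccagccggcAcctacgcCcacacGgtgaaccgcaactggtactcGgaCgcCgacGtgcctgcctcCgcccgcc
ALPG: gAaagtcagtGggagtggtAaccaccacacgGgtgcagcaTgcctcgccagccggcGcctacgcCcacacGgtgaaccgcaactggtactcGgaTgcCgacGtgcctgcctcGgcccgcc
ALPI: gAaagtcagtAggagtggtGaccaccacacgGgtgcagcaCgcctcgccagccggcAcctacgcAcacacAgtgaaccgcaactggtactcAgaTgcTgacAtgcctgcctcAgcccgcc
Even in this stretch ALPG differed from ALPP at only 6 positions, and ALPI differed from ALPP at 11. Over the whole transcripts, 18.7% of the 75-base windows of ALPP and 20.6% of those of ALPG also occurred in another of the 3 genes, against 0.0316% in ALPI. At 150 bases these shares were 7.64%, 8.49% and 0%. Reads from such windows fit more than 1 gene, and how the counting treated them is not given in the sources used here, so the split between ALPP and ALPG is uncertain.

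CGA (ENSG00000135346) lies on chromosome 6 from 87085498 to 87095106 on the minus strand of GRCh38. It was the highest member in every library. Its level was 82.1, 98.3 and 82.4 CPM in L1high replicates 1, 2 and 3, and 31.0, 30.8 and 32.0 CPM in the L1low replicates. The lowest L1high library stood far above the highest L1low library, and the L1low libraries were nearly equal. The means were 87.6 ± 9.31 and 31.3 ± 0.652 CPM (SD, n = 3 each). The log2 fold change of CGA was -1.52 (standard error 0.10), 2.87-fold lower in L1low cells, and -1.49 over all 6 libraries. These levels rest on 1352 to 2020 counts per L1high library and 553 to 567 per L1low library.

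ALPP (ENSG00000163283), the placental enzyme, lies on chromosome 2 from 232378724 to 232382889 on the plus strand. Its level was 17.6, 15.7 and 17.8 CPM in the L1high libraries and 5.94, 5.35 and 4.91 CPM in the L1low libraries. The groups did not overlap. The log2 fold change was -1.61 (standard error 0.14), 3.06-fold lower, and -1.65 over all 6 libraries.

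ALPG (ENSG00000163286), the germ cell enzyme, follows from 232406844 to 232410714. Its level was 5.19, 5.84 and 5.85 CPM in the L1high libraries and 1.38, 1.78 and 1.36 CPM in the L1low libraries. ALPG showed the largest fitted fold of the members, with a log2 fold change of -1.86 (standard error 0.22), 3.63-fold lower, and -1.90 over all 6 libraries. It rests on 24 to 32 counts per L1low library.

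ALPI (ENSG00000163295), the intestinal enzyme, lies from 232456125 to 232460753. It was the lowest member, at 1.65, 1.17 and 1.40 CPM in L1high and 0.330, 0.557 and 0.565 CPM in L1low cells. Every L1low library held it below 1 CPM, on 6 to 10 counts. The table lists only genes above 1 CPM in at least 2 libraries, so ALPI entered it through the L1high libraries alone and had to be lower in L1low cells. Its log2 fold change was -1.52 (standard error 0.39), 2.88-fold lower, with the widest error of the 5.

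VSNL1 (ENSG00000163032) lies on chromosome 2 from 17539126 to 17657018 on the plus strand, far from the phosphatase genes. Its level was 35.8, 37.1 and 29.9 CPM in the L1high libraries and 10.8, 11.8 and 12.8 CPM in the L1low libraries. L1high replicate 3 was the lowest of its group and was still above each L1low library. The log2 fold change was -1.62 (standard error 0.11), 3.07-fold lower, over the 5 libraries that leave this one out, and -1.54 over all 6.

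**Figure D1:**
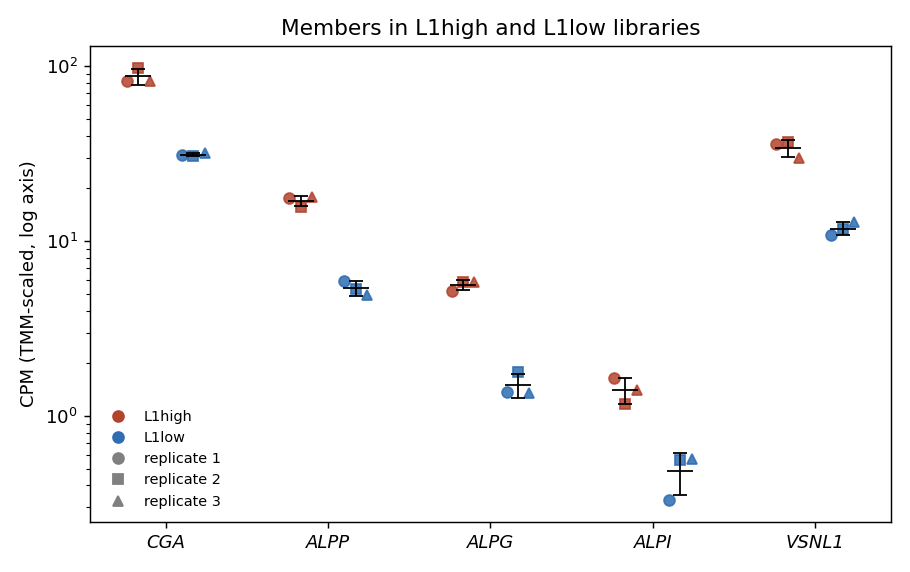
CPM of CGA, ALPP, ALPG, ALPI and VSNL1 in each library (log axis), with a point for each of the 3 L1high and 3 L1low libraries, shaped by replicate, and bars for the mean ± SD. The groups of each gene do not overlap, and the levels run from 98.3 CPM for CGA down to 0.330 CPM for ALPI.

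Of the members, 5 of 5 were called lower, both over the 5 libraries and over all 6, where 3.15% and 3.37% of all tested genes were called lower and 7.57% and 7.95% in either direction. In 5 of 5 each L1low library was below each L1high library, against 13.7% of all genes. Since the members were picked for this difference, these counts restate the choice and are no test of it. Among all 19469 genes tested, called or not, ranked from the largest fitted fall, ALPG stood 10th, VSNL1 22nd, ALPP 23rd, ALPI 31st and CGA 33rd. The median log2 fold change of all genes was 0.0016.

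Per kilobase of exon, the order of the levels was CGA, VSNL1, ALPP, ALPG and ALPI in both populations. In L1high cells the mean CPM per kilobase was 44.1 for CGA, 9.04 for VSNL1, 5.94 for ALPP, 2.26 for ALPG and 0.420 for ALPI. In L1low cells it was 15.8, 3.11, 1.88, 0.604 and 0.144 in the same order. The libraries of neighbours in this order did not overlap in either population, the closest being VSNL1 (7.89 to 9.79) and ALPP (5.48 to 6.20) in L1high cells. CGA exceeded 87.1% of all genes on this scale over the 6 libraries.

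Adding ALPP, ALPG and ALPI avoids the question of how reads were divided among them. It does not settle whether shared reads were left out or counted more than once, which is not given. The sum was 518, 467 and 411 counts in the L1high libraries and 139, 138 and 121 in the L1low libraries, or 24.1 ± 1.19 and 7.39 ± 0.484 CPM (SD, n = 3 each). Its log2 fold change was -1.66 (standard error 0.12) and -1.70 over all 6 libraries, between those of ALPP and ALPG. ALPP held 69.2% to 72.0% of the sum in L1high libraries and 69.6% to 77.7% in L1low libraries. The share of ALPG was 21.2% to 25.7% and 18.0% to 23.2%, and that of ALPI 5.14% to 6.76% and 4.32% to 8.26%. The shares as counted thus overlapped between the populations while the summed level did not. Because the split between ALPP and ALPG is uncertain, these shares may differ from the true composition of the family.

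The lncRNA gene ENSG00000224516 runs on the opposite strand inside ALPP, from 232379635 to 232381674, and was singled out after its values were seen. Of its 680 exon bases, 631 (92.8%) overlap exons of ALPP, which is 22.0% of the exon bases of ALPP. It held 89, 63 and 79 counts in the L1high libraries and 16, 28 and 16 in the L1low libraries. The antisense gene was called lower in L1low cells, by edgeR's quasi-likelihood fit over all genes, with a log2 fold change of -1.69 ± 0.30 (standard error) and an adjusted p of 0.0043. The strand setting of the counting is not given in the sources used here, so reads of ALPP and of its antisense partner cannot be told apart.

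The library-to-library pattern was compared after centring the log2 CPM of each gene on its mean over the 6 libraries. The measure of likeness was the root mean square difference between a pair of genes over the libraries. This is a description, since every gene that is lower in L1low cells by a similar fold scores well. Among the members the closest pair was CGA and VSNL1 at 0.102, on different chromosomes, and the farthest was ALPG and ALPI at 0.351. ALPP and ALPG stood at 0.199. In L1high cells CGA and VSNL1 were highest in replicate 2, whereas ALPP and ALPI were lowest there.

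**Figure D2:**
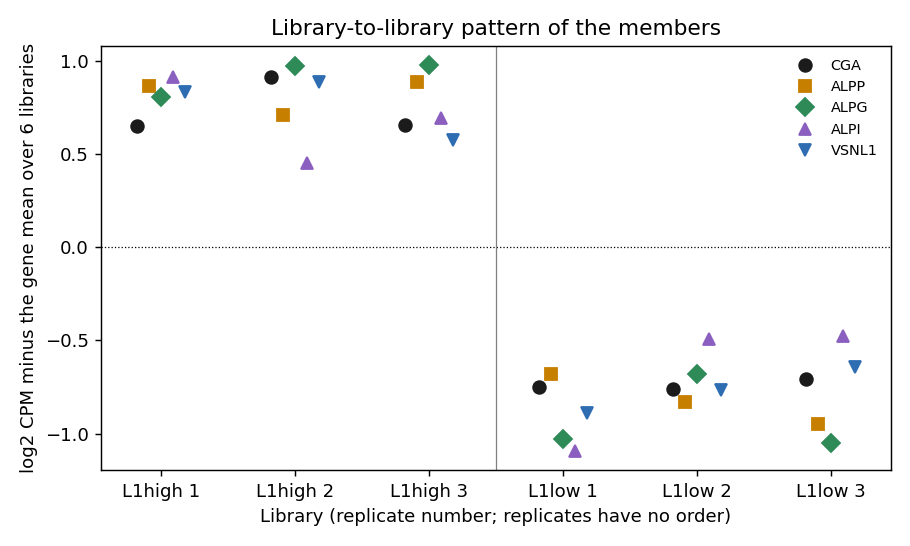
Log2 CPM of each member minus its own mean over the 6 libraries (vertical axis), by library (horizontal axis), with a symbol per gene. All 15 points of the L1high libraries lie above 0 and all 15 of the L1low libraries below, and ALPI shows the widest scatter.

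Among 17091 genes whose log2 CPM averaged 1 or more, VSNL1 was the closest to CGA and CGA the closest to VSNL1. After VSNL1 the closest to CGA were IGFL1, a member of the insulin growth factor-like family, at 0.103 and PI3, the protease inhibitor elafin, at 0.105, where the median over all candidates was 0.753. IGFL1 stood at 151 ± 1.58 CPM in L1high and 54.9 ± 5.19 in L1low cells, and PI3 at 68.9 ± 5.10 and 28.1 ± 0.590 (SD, n = 3 each). VSNL1 was followed by IGFL1 at 0.113 and SERPINB2, plasminogen activator inhibitor type 2, at 0.133. The closest to ALPP were the lncRNA ENSG00000269745 at 0.137, SERPINB2 at 0.144 and the serine protease gene PRSS36 at 0.155. The closest to ALPG was L1CAM itself at 0.162, then ALPP and ENSG00000284987, which overlaps L1CAM, at 0.214. The closest to ALPI were LINC02958 at 0.172, the mucin gene MUC16 at 0.189 and PYCARD-AS1 at 0.208.

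CGA makes a hormone only together with a beta subunit. Of 14 other listed glycoprotein hormone genes (beta subunits, receptors and related hormones), CGB7 was the only one measured and the other 13 were not analysed here. CGB7, a gene of the chorionic gonadotropin beta cluster, held 91, 86 and 87 counts in the L1high libraries and 215, 218 and 236 in the L1low libraries. It rose where CGA was lower, from 4.59 ± 0.615 to 12.4 ± 0.788 CPM (SD, n = 3 each). The log2 fold change of CGB7 was 1.56 (standard error 0.15, adjusted p = 4.1e-05, edgeR's quasi-likelihood test), 2.95-fold higher in L1low cells. CGB7 belongs to a family of near-identical copies, so its counts are uncertain. The readthrough gene ENSG00000283663 and the pseudogene ENSG00000283251 overlap CGB7, and both rose, by log2 fold changes of 1.38 (adjusted p = 0.00050) and 1.49 (adjusted p = 0.00092). The adjacent NTF4, which encodes neurotrophin 4 and was singled out after its values were seen, rose by 1.15 (standard error 0.16, adjusted p = 0.00060), from 5.27 ± 0.697 to 11.0 ± 0.598 CPM. The readthrough gene also spans all of NTF4 on the same strand, so these genes are not separate readings. The rise at this place on chromosome 19 was thus seen in genes that overlap one another or the readthrough gene.

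The alkaline phosphatases have 1 further human gene, ALPL, the tissue-nonspecific enzyme, which was not analysed here. Of the 13 other neuronal calcium sensor genes listed beside VSNL1, 5 were measured, and HPCAL1, a close relative of VSNL1, was the only one called. Over all genes 3.15% were called lower and 7.57% in either direction. HPCAL1 fell from 52.5 ± 3.27 to 36.6 ± 2.20 CPM (SD, n = 3 each), or by -0.48 on the log2 scale (edgeR's quasi-likelihood test, standard error 0.10, adjusted p = 0.0097), smaller in size than the -1.62 of VSNL1, with no test of the difference. NCS1, neuronal calcium sensor 1, stood at 74.8 ± 2.80 and 88.8 ± 0.827 CPM, with a log2 fold change of 0.26 (adjusted p = 0.066, and 0.044 over all 6 libraries). KCNIP3 (-0.49), HPCA (0.38) and NCALD (0.25) were not called in either set of libraries. The median log2 fold change of these 5 genes was 0.25, against 0.0016 over all genes.

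**Figure D3:**
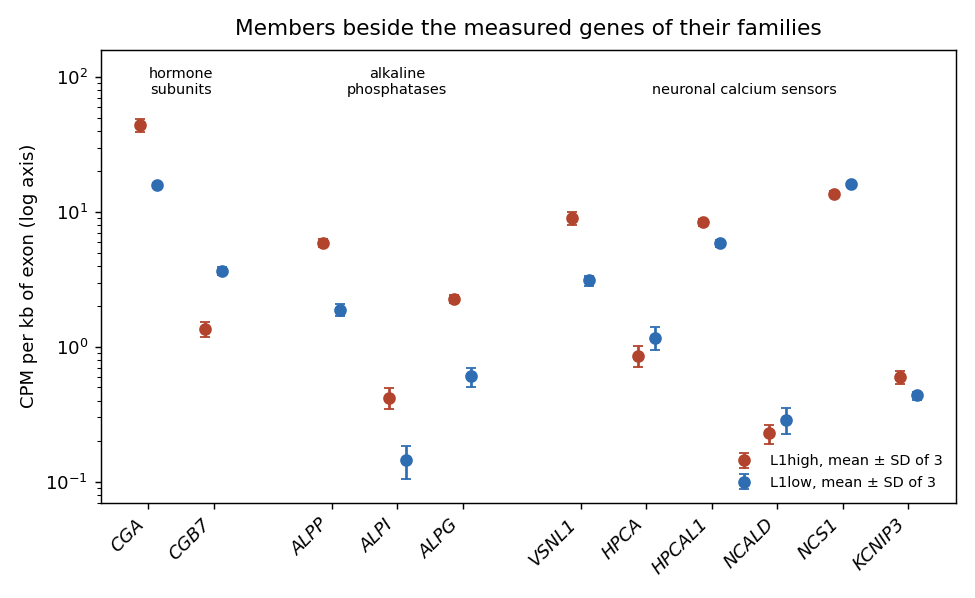
CPM per kilobase of exon (vertical log axis) of the members and the measured genes of their families, with points and bars for the mean ± SD of the 3 L1high and 3 L1low libraries. CGA stands at 44.1 in L1high and 15.8 in L1low cells and VSNL1 at 9.04 and 3.11, CGB7 lies higher in L1low cells (1.36 and 3.67), and the calcium sensors other than VSNL1 lie closer together between the populations.

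The promoters are shown because CGA and the phosphatases are not related in sequence. The 250 bases before the RefSeq transcript start (RefSeq, GRCh38.p14) are printed 5′ to 3′ for CGA (chr6:87095107-87095356, minus strand), ALPP (chr2:232378501-232378750), ALPG (chr2:232406594-232406843) and ALPI (chr2:232455903-232456152, all 3 on the plus strand). Capitals mark the cAMP response element TGACGTCA in CGA and TTTAAA in the phosphatases.
CGA: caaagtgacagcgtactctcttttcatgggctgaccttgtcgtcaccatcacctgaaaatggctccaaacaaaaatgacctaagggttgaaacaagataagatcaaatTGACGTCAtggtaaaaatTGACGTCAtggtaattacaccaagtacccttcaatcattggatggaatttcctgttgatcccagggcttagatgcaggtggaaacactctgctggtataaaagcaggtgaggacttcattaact
ALPP: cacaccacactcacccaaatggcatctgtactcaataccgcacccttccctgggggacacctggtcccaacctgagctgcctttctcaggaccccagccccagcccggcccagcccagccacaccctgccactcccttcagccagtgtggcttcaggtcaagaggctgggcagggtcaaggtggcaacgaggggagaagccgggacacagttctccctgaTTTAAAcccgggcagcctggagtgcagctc
ALPG: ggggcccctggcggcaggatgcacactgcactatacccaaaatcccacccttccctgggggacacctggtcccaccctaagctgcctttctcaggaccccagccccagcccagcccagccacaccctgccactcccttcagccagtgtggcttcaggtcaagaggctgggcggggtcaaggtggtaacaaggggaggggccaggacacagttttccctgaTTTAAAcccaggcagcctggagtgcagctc
ALPI: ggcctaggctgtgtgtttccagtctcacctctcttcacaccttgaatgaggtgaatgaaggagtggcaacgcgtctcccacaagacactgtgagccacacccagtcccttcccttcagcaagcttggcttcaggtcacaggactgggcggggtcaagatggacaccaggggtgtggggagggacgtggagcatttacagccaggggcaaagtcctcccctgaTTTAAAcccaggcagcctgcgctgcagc
All 5 members had an entry, and VSNL1 had 2 starts. The palindrome TGACGTCA, which CREB family factors bind, occurred 2 times in the CGA promoter, beginning 142 and 124 bases before the start. On either strand, 1.65% of 35116 promoter windows of this length held it, and 0.0541% held 2 or more. The windows of the other members held none. TATAAA, held by 10.7% of windows, began 29 bases before the start of CGA and 119 bases before the first start of VSNL1. TTTAAA, held by 11.3%, began 30 bases before the start in ALPP and ALPG and 28 bases before it in ALPI. AGATAA, which GATA factors bind and 9.17% of windows held, began 156 bases before the start of CGA, and TGANTCA, which AP-1 factors bind and 6.57% of windows held, had no match in any member. The ALPP and ALPG promoters were 87.3% identical, and that of ALPI was 67.0% and 66.5% identical to them. A match is a description of these letters and not evidence of binding.

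Genes of cAMP and CREB signalling were looked at beside these elements. Of 24 listed genes 23 were measured, of which 5 were called higher and 2 lower, while 3.15% of all genes were called lower and 4.41% higher. The median log2 fold change of the 23 was 0.09. ATF3, a stress-induced factor of the ATF and CREB family, rose from 290.4 ± 3.01 to 409 ± 15.0 CPM (SD, n = 3 each; log2 fold change 0.50, adjusted p = 0.00097, edgeR's quasi-likelihood test). PER1, CRTC1, CREBBP and FOS rose by 0.57, 0.54, 0.37 and 0.25. The cAMP phosphodiesterase gene PDE4B fell by 0.40 and the nuclear receptor gene NR4A2 fell by 0.30 on the log2 scale. The number of calls depended on single libraries. Without L1low replicate 2 only 1 of these genes was called, and with L1high replicate 3 in place of replicate 1 only 2 were. Calls over all genes fell as well, from 1473 to 551 and 674. Without L1low replicate 2 the genes that lost their call kept their direction, with CRTC1 at 0.55, NR4A2 at -0.33 and FOS at 0.24.

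Surface alkaline phosphatase depends on the GPI anchor. All 28 listed genes of anchor synthesis and attachment were measured. Of these, 0 of 28 were called by edgeR's quasi-likelihood test, its exact test or DESeq2, where the first called 7.57% of all genes. In that test 3 of the 28 had an unadjusted p under 0.05, against 4535 of all 19469 genes. Their median log2 fold change was -0.04. PIGT, a subunit of the transamidase that attaches the anchor, stood at 178 ± 3.02 CPM in L1high and 167 ± 2.09 in L1low cells, and GPAA1, another subunit, at 163 ± 15.7 and 163 ± 2.33 (SD, n = 3 each). Of 21 listed genes of folate and biopterin metabolism, pathways that share a gene set with the alkaline phosphatases in public collections, 19 were measured. Of these 3 were called lower and 0 higher, where 3.15% of all genes were called lower and 4.41% higher. GCH1, the first enzyme of biopterin synthesis, fell by 0.64 (adjusted p = 0.0090), MOCS2, of molybdopterin synthesis, fell by 0.44 (adjusted p = 0.020), and GGH, gamma-glutamyl hydrolase, fell by 0.34 (adjusted p = 0.047, and 0.096 over all 6 libraries). Leaving out libraries in turn gave 0 to 3 calls, with 0 when L1high replicate 3 took the place of replicate 1. There was 1 when it took the place of replicate 2 or when L1low replicate 2 was left out. Over all genes 674 were called in the first of these settings and 551 without L1low replicate 2, against 1473. The median of the 19 genes was -0.11, with 14 of 19 lower.

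Markers of the tissues in which the members are usually found were listed to see whether they moved alongside. Of 40 other placental trophoblast genes 14 were measured, and 2 were called, in opposite directions. Over all genes 3.15% were called lower and 4.41% higher. PGF, placental growth factor, rose from 12.5 ± 0.932 to 25.4 ± 1.03 CPM (SD, n = 3 each; log2 fold change 1.09, adjusted p = 7.8e-05, edgeR's quasi-likelihood test). PHLDA2, an imprinted growth regulator, fell from 11.5 ± 0.705 to 6.97 ± 1.09 CPM (log2 fold change -0.66, adjusted p = 0.024). Its call was lost without L1low replicate 2 (log2 fold change -0.74, adjusted p = 0.057), where 551 of all genes were called, against 1473. The highest of this list, PEG10 at 202 and 186 CPM and TFAP2A at 160 and 182, were not called, and the median was 0.03. The summed level of the 14 genes was 477 to 532 CPM in L1high and 494 to 530 in L1low libraries. Over all 6 libraries TFPI2 was called lower as well (log2 fold change -0.67, adjusted p = 0.042, edgeR's quasi-likelihood test). With the replicate number as a block 5 of the 14 were called, where 2363 of all genes were. The further ones were GATA2, which was higher (0.37), and ADAM12 and TFPI2, which were lower (-0.62 and -0.66).

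Of 29 other enterocyte genes listed beside ALPI, CDX2, VIL1, FABP6 and CDHR2 were measured. Of these 0 were called by edgeR's quasi-likelihood test, its exact test or DESeq2, and 1 had an unadjusted p under 0.05. By the quasi-likelihood test 7.57% of all genes were called, and 4535 of 19469 had an unadjusted p under 0.05. VIL1, which encodes the microvillar protein villin, stood at 13.4 ± 3.59 and 14.1 ± 1.99 CPM (SD, n = 3 each). Of 11 other germ cell genes 3 were measured, SALL4, KIT and PRAME. By edgeR's quasi-likelihood test or DESeq2 0 were called, and 1 was by the exact test. At an unadjusted p under 0.05 there was 1, beside the same shares of all genes. KIT had a log2 fold change of -0.89 (adjusted p = 0.10, and 0.034 with the replicate number as a block).

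Of 24 other neuronal genes 7 were measured, of which 2 were called, both lower, where 3.15% of all genes were called lower and 7.57% in either direction. Over all 6 libraries 3 were called, with ENO2 added as higher. NEFL, the light neurofilament, fell from 65.7 ± 3.04 to 50.3 ± 1.98 CPM (log2 fold change -0.40, adjusted p = 0.015), and UCHL1, a neuronal ubiquitin hydrolase, fell from 10.6 ± 0.632 to 7.28 ± 0.823 CPM (log2 fold change -0.56, adjusted p = 0.040, SD over n = 3 each, edgeR's quasi-likelihood test). Without L1low replicate 2 neither was called, at log2 fold changes of -0.43 for NEFL and -0.47 for UCHL1. With L1high replicate 3 in place of replicate 1 only 1 was. Over all genes 551 and 674 were called in these settings, against 1473. ENO2, neuronal enolase, had a log2 fold change of 0.24 (adjusted p = 0.088), with an adjusted p of 0.041 over all 6 libraries and 0.025 with the replicate number as a block. TUBB3 (0.05) was not called, and the median of the 7 was 0.05.

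Among the carcinoma's own epithelial genes 3 were called higher and 2 lower, where 4.41% of all genes were called higher and 3.15% lower. TP63, the basal and squamous transcription factor, rose from 299 ± 15.9 to 650 ± 31.0 CPM (SD, n = 3 each; log2 fold change 1.09, adjusted p = 3.9e-06, edgeR's quasi-likelihood test), and the keratin genes KRT19 and KRT14 rose by 0.69 and 0.50. KRT6A fell by 0.58 and EPCAM fell by 0.37 on the log2 scale. EPCAM was no longer called without L1low replicate 2 or with L1high replicate 3 in place of replicate 1 or 2 (adjusted p from 0.095 to 0.16). Its log2 fold change in these settings was -0.37, -0.30 and -0.21. The 3 fibroblast genes measured of 10 summed to 86.7 to 98.5 CPM in L1high and 140 to 160 in L1low libraries, of which LUM, lumican, was called higher (0.74, adjusted p = 0.00031), and the part of this in the members' levels was not tested.

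The surroundings of the members were examined over 400 kb on either side, a window chosen after values were seen. Around the phosphatase genes 11 other genes were measured, of which 3 were called, all lower, where 3.15% of all genes were called lower. They were ENSG00000224516 inside ALPP, whose reads cannot be told apart from those of ALPP, ECEL1 and PRSS56. ECEL1, an endothelin-converting enzyme-like peptidase gene 19.1 kb from ALPI, fell from 68.5 ± 1.15 to 41.8 ± 1.74 CPM (SD, n = 3 each; log2 fold change -0.69, adjusted p = 0.00031, edgeR's quasi-likelihood test). PRSS56, a serine protease gene 59.6 kb from ALPI, held 37, 33 and 41 counts in L1high and 16, 6 and 9 in L1low libraries, and was called lower at -1.52 ± 0.39 (log2 fold change and its standard error; adjusted p = 0.034). As with ALPI, all L1low libraries held PRSS56 below 1 CPM, so it entered the table through the L1high libraries and had to be lower. Its call was lost without L1low replicate 2 (adjusted p = 0.15) and without L1low replicate 3 (adjusted p = 0.053). DESeq2 called 1 of the 11, but ENSG00000224516 and PRSS56 had no adjusted p in that fit, so neither could be called there. DIS3L2 (-0.07), on the other side and 34.4 kb from ALPP, nearer than PRSS56 is to ALPI, was not called. Farther out than PRSS56, TIGD1 (-0.35, adjusted p = 0.22) and EIF4E2 (-0.06) were not called.

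Around CGA, 6 other genes were measured. Of these 0 were called by edgeR's quasi-likelihood test, its exact test or DESeq2, and 1 with the replicate number as a block. At an unadjusted p under 0.05 in the quasi-likelihood test there were 0, against 4535 of all 19469 genes. Over all genes that test called 7.57%, and with the block 2363 genes were called. ZNF292, a neighbour of CGA, had a log2 fold change of 0.23 (adjusted p = 0.35). Around VSNL1, 3 others were measured and 0 were called by any of these tests, with 1 at an unadjusted p under 0.05. These were GEN1, KCNS3 and SMC6, of which SMC6 stood at -0.24 (adjusted p = 0.12).

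**Figure D4:**
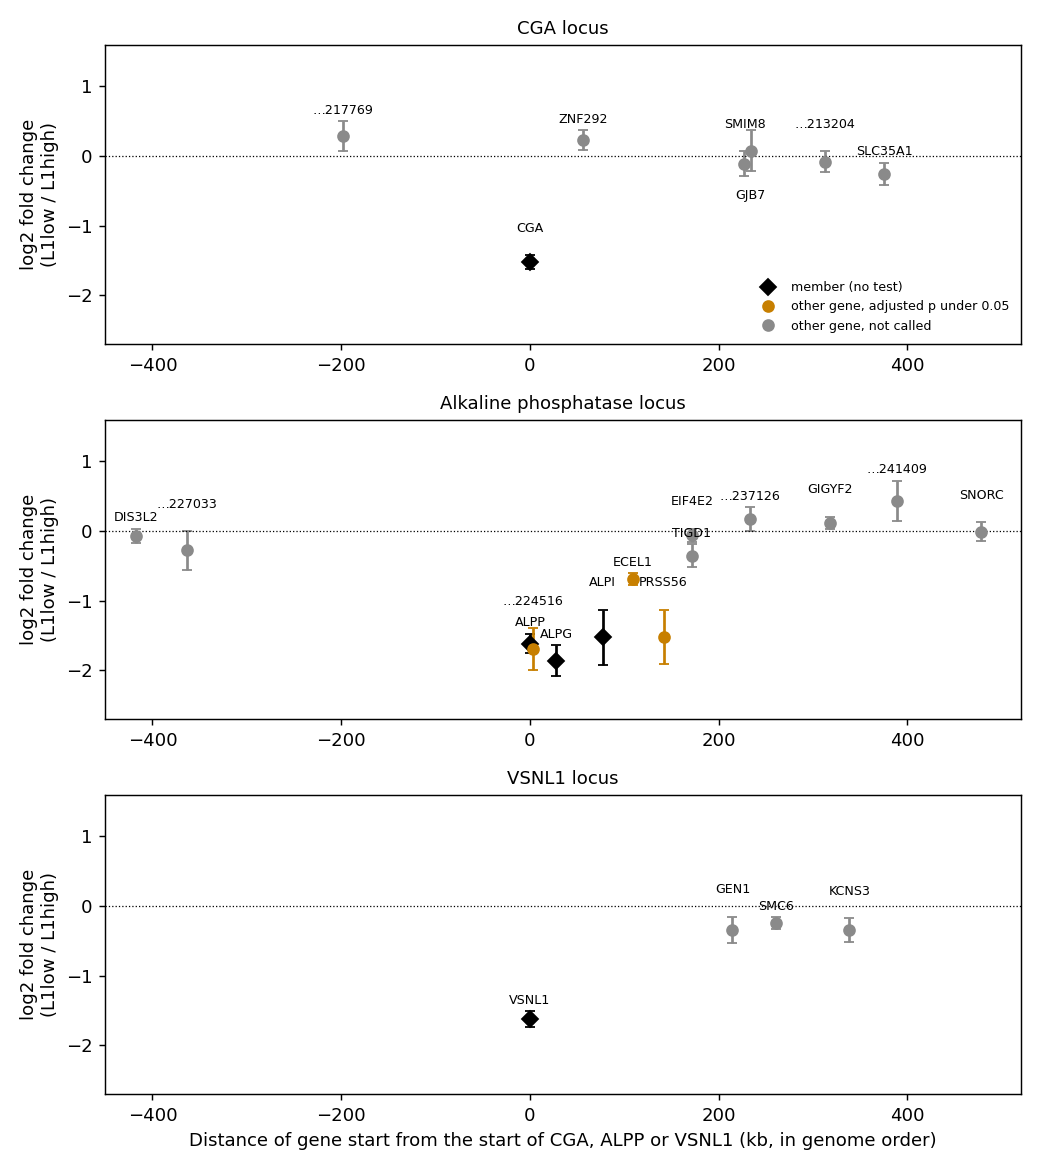
Log2 fold change of L1low over L1high (vertical axis, bars of 1 standard error) by distance in kb of each gene's start from that of CGA, ALPP or VSNL1, in a panel per locus. Next to the phosphatase genes ECEL1 lies at -0.69, while ENSG00000224516, whose reads cannot be told from those of ALPP, and PRSS56, which entered the table through the L1high libraries, are marked as called too.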

How the data were processed

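RNA from FACS-sorted L1high and L1low L3.6pl cells was sequenced as stranded, paired-end mRNA libraries, 3 per population. The authors used BWA for alignment to GRCh38 and featureCounts with the Ensembl release 94 gene models, and deposited unnormalized read counts. The submitters' processing notes also name DESeq2. Versions and the strand and multi-mapping options are not given in the sources used here. Each of the 19469 genes exceeded 1 CPM in at least 2 libraries.

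Symbols and coordinates came from GENCODE release 44, which matched 19344 identifiers, and promoters from RefSeq. Fits used R 4.3.3 and edgeR 4.0.16 with TMM factors, filterByExpr (19469 genes kept, 19467 over 6 libraries), quasi-likelihood tests, and p-values adjusted over all genes by Benjamini-Hochberg. The standard error is the log2 fold change divided by the square root of F. Log2 CPM used a prior count of 2. Alternatives were all 6 libraries, each library left out, the replicate block, RLE and upper-quartile scaling, DESeq2 1.42.0, the exact test and at least 10 counts per library. Genes without an adjusted p in DESeq2 were counted as not called. The fit was tested on simulated data.

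The members and gene lists were chosen with earlier results of these data known. Genes named are the members, their 3 closest genes by pattern, and called, highest or lost members of the lists. The window around the loci, NTF4, the genes overlapping CGB7 and ENSG00000224516 were chosen after values were seen. Same-numbered libraries deviated together, with correlations of 0.11, 0.10 and 0.30 between L1high and L1low replicates 1, 2 and 3, and L1high replicate 2 also did so with L1low replicate 1 (0.11). The labels do not say whether the numbers pair the libraries, and these correlations do not settle it. The reported fits carry no block and treat the libraries as unpaired, and the block was an alternative. No 2 libraries agreed within sampling noise (lowest chi-square 3.66 per degree of freedom).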

Additional observations from a re-analysis of the deposited data

How the results depend on the processing

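All 5 members stayed lower in L1low cells under every alternative. Log2 fold changes ran from -1.53 to -1.39 for CGA, -1.71 to -1.55 for ALPP, -2.0 to -1.79 for ALPG, -1.65 to -1.31 for ALPI and -1.68 to -1.48 for VSNL1. VSNL1 moved by more than its spread, to -1.51 and -1.48, when L1high replicate 3 took the place of replicate 1 or 2. ALPI could not be fitted with at least 10 counts per library. No named gene that was called changed direction, while VIL1, GPAA1, NR4A1, KRT17, PRAME and other genes near 0 that were not called changed sign under some alternatives. Over all genes 1473 were called, 859 higher and 614 lower. With the replicate number as a block over all 6 libraries, 2363 were called, 1143 of them lower, against 1548 without the block. The block gave 5 trophoblast, 2 neuronal calcium sensor (NCS1 added) and 1 germ cell call, the exact test gave 5, 2 and 1 with 930 genes lower, and all 6 libraries gave 2 calcium sensor calls. The block removed no call of a named gene and added those of NCS1, ENO2, CREM, NR4A3, KRT8, KIT, GATA2, ADAM12 and TFPI2 in the lists. Leaving out each library in turn gave 551 to 1649 calls, 340 to 941 higher and 211 to 761 lower, with 0 to 3 in the folate and biopterin list, 1 to 7 in the cAMP list and 0 to 2 in the neuronal list. The fewest came without L1low replicate 2 (551) and without L1high replicate 1 (674, with 425 higher and 249 lower, and 0, 2 and 1 in those 3 lists). The cause was not tested. Leaving out the filter on low counts changed nothing over the 5 libraries, where it removed no gene (over all 6 it kept 19467 of 19469). For ALPI, ALPG and PRSS56 the low counts in L1low libraries limit the precision.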
